A study of Arabidopsis thaliana with 13 samples.

Results

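ath-MIR158a, ath-MIR158b, ath-MIR161 and ath-MIR400 are 4 of the 325 *Arabidopsis thaliana* miRNA genes in the deposited table of small RNA sequencing. They were taken from it by name, and 216 of the 325 genes were above 0 in any library. All plants carried pAP1::AP1-GR in the *ap1 cal* double mutant of the Landsberg background. Before induction such plants build up inflorescence-like meristems in place of flowers. In them the promoter of *AP1* drives a fusion of the floral regulator AP1 to a hormone-binding domain, so that the dexamethasone-treated (DEX) inflorescences start to form flowers at about the same time. Inflorescences were collected before treatment (day 0, n = 2) and 2 days (n = 3), 4 days (n = 2) and 8 days (n = 3) after DEX, and untreated seedlings in the vegetative stage (n = 3) were collected from the same line. The strength of the DEX solution is given differently in different sources and is not repeated here, and day 0 plants were not mock-treated, so that time and treatment cannot be told apart.

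Plant miRNAs are cut from hairpin precursors, are loaded into ARGONAUTE1 and pair with nearly complementary mRNAs, which are then sliced or less translated. Pentatricopeptide repeat (PPR) proteins form a large plant family that binds RNA in mitochondria and chloroplasts and takes part in its editing, splicing and trimming. miR161 and miR400 pair with PPR mRNAs. The *MIR158* genes belong to a family known from *Arabidopsis* and its relatives, and the reference annotation lists their function as unknown. Neither mRNA nor PPR protein was measured in these files.

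The mature sequences are shown because they decide which reads can be assigned to which locus. They were read from the TAIR10.1 assembly at the positions of the RefSeq annotation, 5′ to 3′, with the seed (bases 2 to 8) in capitals.
ath-miR158a-3p: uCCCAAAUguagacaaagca
ath-miR158a-5p: cUUUGUCUacaauuuuggaaa
ath-miR158b: cCCCAAAUguagacaaagca
ath-miR161.1: uGAAAGUGacuacaucggggu
ath-miR161.2: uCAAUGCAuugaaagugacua
ath-miR400: uAUGAGAGuauuauaagucac

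miR158a-3p and miR158b share the seed and 19 of their 20 bases, and differ by U1C, counted from the 5′ end with the base of miR158a-3p first. Each full sequence occurred at 1 place in the genome, whereas bases 2 to 20 occurred at 2 places, the 2 *MIR158* loci. The first base is therefore the only base of the mature miRNA that separates reads of ath-MIR158a from reads of ath-MIR158b. A read of bases 2 to 20 alone maps to both loci, and STAR leaves such reads out of its gene counts. How reads with an altered first base were assigned was not tested. miR161.1 starts 9 bases downstream of miR161.2 on the same precursor and shares 12 bases with it. The table gives 1 value for the locus, so the levels of miR161.1 and miR161.2 cannot be told apart.

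ath-MIR158a (AT3G10745) lies on the minus strand of chromosome 3, at chr3:3366331-3366430. ath-MIR158b (AT1G55591) and ath-MIR161 (AT1G48267) lie on the plus strand of chromosome 1, at chr1:20772218-20772302 and chr1:17825685-17825857. None of these 3 precursors overlapped a protein-coding gene. ath-MIR400 (AT1G32582) lies at chr1:11785936-11786037 within an intron of AT1G32583, on the same plus strand. The mature miR400 sequence occurred at 2 places, at chr1:11785947-11785967 in its own locus and at chr1:2014950-2014970. The second place is in the PPR gene AT1G06580, on the strand opposite to that gene, which makes the AT1G06580 mRNA a perfect complement of miR400. The gene counts came from STAR, which leaves reads that map to more than 1 place out of its gene counts.

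Values are RPM, the reads of a gene scaled to all mapped reads of the library. They were whole multiples of 1 read in every library, which gave a depth of 926300 to 2142752 mapped reads in the 10 inflorescence libraries and of 148673 to 366691 in the 3 seedling libraries. The miRNA genes took up 2.28% to 3.18% of these reads in an inflorescence library and 1.67% to 2.28% in a seedling library. Run 1 holds the seedlings, run 2 holds days 0 and 2, and run 3 holds days 4 and 8. The deposited sheet gives the run at the start of each block of libraries, and this assignment assumes that the whole block shares it. Seedlings against inflorescences, and days 0 and 2 against days 4 and 8, are therefore also differences between runs, and tissue or stage and run cannot be told apart there. As a check of the tissue labels, the summed RPM of 14 *MIR156* and *MIR157* loci, which mark the juvenile phase, was 259 to 362 in seedlings and 14.1 to 51.7 in inflorescences. ath-MIR157d went against this sum, at 0 in every seedling library and called higher on day 0 (adjusted p = 3.5e-05 from limma). The 5 *MIR172* loci, which rise with age and act in flowers, summed to 0 to 6.73 RPM in seedlings and to 12.7 to 61.0 RPM in inflorescences. The highest seedling sum is the RPM of 1 read in seedlings replicate 2. In seedlings 3 reads are 8.18 to 20.2 RPM, which reaches into the inflorescence range, so the *MIR172* sums are a weak check. Reads that map to more than 1 place are not in either sum.

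Ranks rest on the gene counts, which leave out reads that map to more than 1 place. How those reads would change the ranks was not tested. By these counts ath-MIR158a was the most abundant miRNA gene in all 13 libraries. It had 8323, 6693 and 12359 RPM in the 3 seedling libraries. It had 6512 and 5537 RPM on day 0, and 5577, 7424 and 6187 RPM on day 2. It then had 9746 and 8764 RPM on day 4, and 11251, 10225 and 10727 RPM on day 8. The libraries of days 4 and 8 were all above those of days 0 and 2, and the seedling libraries spanned both ranges. These values rest on 995 to 16907 reads per library.

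ath-MIR161 ranked second in each seedling library and 3 to 6 in the inflorescences. It had 4022, 4345 and 4425 RPM in seedlings, a narrower relative spread than for the other detected members in that group. It had 2758 and 2321 RPM on day 0 and 2018, 3062 and 2529 RPM on day 2. It had 3999 and 4105 RPM on day 4 and 3726, 4420 and 3709 RPM on day 8. The seedling and late libraries overlapped, and all of them were above the libraries of days 0 and 2. The locus ranked second after ath-MIR158a was ath-MIR159a on days 0 and 2, with 4472 to 6029 RPM, and ath-MIR319c on days 4 and 8, with 4446 to 6582 RPM.

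ath-MIR158b was far lower than its paralog. It had 240, 161.4 and 277 RPM in seedlings, from 88, 24 and 78 reads. It had 40.0 and 29.4 RPM on day 0 and 29.9, 30.9 and 36.0 RPM on day 2. It had 63.7 and 45.2 RPM on day 4 and 93.8, 74.0 and 77.4 RPM on day 8. No 2 of the ranges of seedlings, day 8, day 4 and the pooled days 0 and 2 overlapped, and the seedlings were highest. It ranked 7 to 9 in seedlings and 14 to 20 in inflorescences. Counting error was wider than for the other members, with an exact Poisson 95% interval of 103 to 240 RPM in the seedling library with 24 reads. Such intervals cover counting error only.

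**Figure D1:**
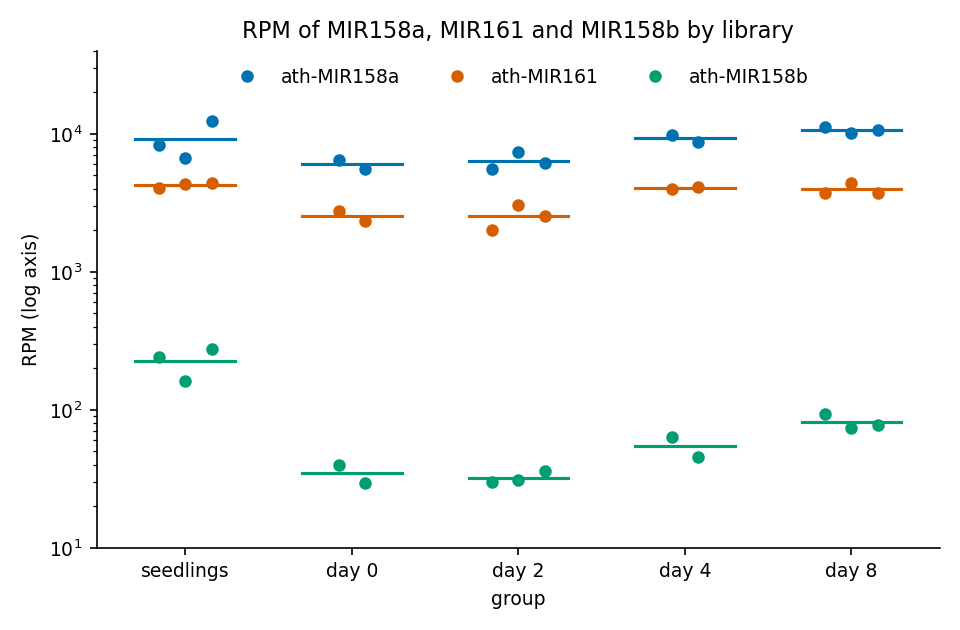
RPM of ath-MIR158a, ath-MIR161 and ath-MIR158b in each of the 13 libraries (points; horizontal lines are group means) on a log axis, by group. Days 0 and 2 are low for all 3 genes, and ath-MIR158b is higher in the seedlings (161.4 to 277 RPM) than in any inflorescence library (29.4 to 93.8 RPM). ath-MIR400, at 0 in every library, is not drawn.

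ath-MIR400 was listed at 0 in all 13 libraries. A count of 0 was taken to allow up to 3 reads, which is 1.40 to 3.24 RPM in the inflorescence libraries and 8.18 to 20.2 RPM in the seedling libraries. Because the exact mature sequence maps to 2 places, a read of that sequence would not enter the gene count, so the limit holds only for reads that map to the locus alone. The part of this double match in the value of 0 was not tested. ath-MIR400 did not pass the filter on low values, and the 3 other members did in both fits.

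Shares, like ranks, cover counted reads only. Reads that map to more than 1 place are missing from the members and from the sum of all miRNA genes. Together the 4 members held 71.7% ± 4.17 (SD, n = 3) of the summed miRNA gene RPM in seedlings. They held 31.1% ± 1.43 (SD, n = 2) on day 0, 34.5% ± 2.11 (SD, n = 3) on day 2, 46.7% ± 0.105 (SD, n = 2) on day 4 and 47.9% ± 2.63 (SD, n = 3) on day 8. ath-MIR158a held 47.6% ± 7.14 (SD, n = 3) in seedlings, 21.8% ± 0.943 (SD, n = 2) on day 0 and 34.8% ± 2.96 (SD, n = 3) on day 8. The share of ath-MIR161 was 22.9% ± 3.32 (SD, n = 3) in seedlings, 9.18% ± 0.464 (SD, n = 2) on day 0 and 12.8% ± 1.03 (SD, n = 3) on day 8. ath-MIR158b held 1.19% ± 0.217 (SD, n = 3) in seedlings, 0.125% ± 0.0182 (SD, n = 2) on day 0 and 0.266% ± 0.0451 (SD, n = 3) on day 8. The widest Wilson 95% interval of any of these shares in a single library reached 1.93 percentage points to each side.

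Each of the 3 detected members held a smaller share in the 10 inflorescence libraries than in the 3 seedling libraries, with no overlap. The difference was -18.9 percentage points for ath-MIR158a, -11.5 for ath-MIR161 and -1.01 for ath-MIR158b. Each gave an exact two-sided permutation p = 0.00699, the smallest that 3 against 10 libraries allow (adjusted over the 10 permutation tests of shares and ratios, 0.0113). A share depends on all other miRNA genes, and their summed RPM differed. The RPM of all miRNA genes together was 16721 to 22800 in seedlings and 22834 to 31807 in inflorescences. A larger share of ath-MIR158a in seedlings than on day 8 thus stood beside overlapping RPM values.

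Within the inflorescences, the shares of the 3 detected members were higher in the 5 libraries of days 4 and 8 than in the 5 of days 0 and 2. The difference was 10.3 percentage points for ath-MIR158a, 3.84 for ath-MIR161 and 0.110 for ath-MIR158b. Again no libraries overlapped, and each gave an exact two-sided permutation p = 0.00794, the smallest possible for 5 against 5 (adjusted 0.0113). Shares of neighbouring stages were not compared in this way, because 2 libraries against 3 are too few for an exact test to pass.

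**Figure D2:**
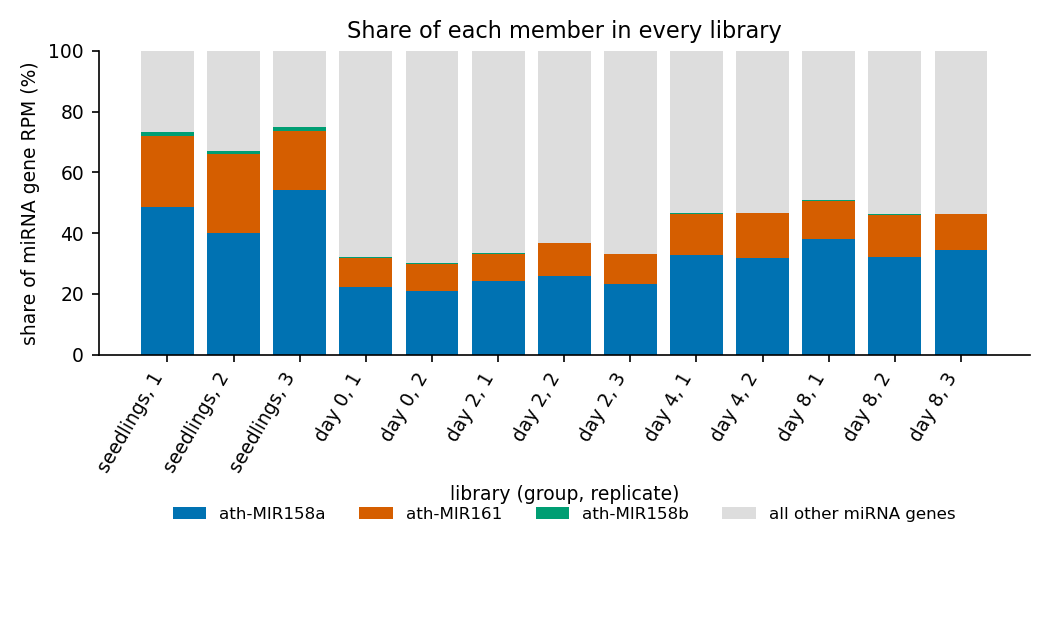
Share of the summed miRNA gene RPM (%) held by ath-MIR158a, ath-MIR161 and ath-MIR158b and by all other miRNA genes, stacked for each library. The coloured part covers 67.0% to 74.8% of a seedling library, 30.1% to 36.9% on days 0 and 2 and 46.3% to 50.9% on days 4 and 8.

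The next comparison asked how inflorescences before induction differ from seedlings. On day 0, ath-MIR158b was lower by 2.65 on the log2(RPM + 1) scale (log2 fold change -2.65, SE 0.30, adjusted p = 9.2e-06 from limma). ath-MIR161 was lower as well, at -0.75 on that scale (SE 0.18, adjusted p = 0.0043). ath-MIR158a had a log2 fold change of -0.56 (SE 0.22) with an adjusted p of 0.04998 from limma. That call was lost with a pseudocount of 0.5 (adjusted p = 0.0504) and without any one of 12 of the 13 libraries. Without seedlings replicate 3, the highest seedling library, the log2 fold change was -0.31 (adjusted p = 0.19). The call of ath-MIR161 was lost without day 0 replicate 2 (adjusted p = 0.053) and without the intensity trend (0.051). Among all 153 genes tested, 15.7% were called lower and the median log2 fold change was 0.59, so the 3 members lay below the bulk of the genes. The higher and lower calls numbered 46 and 24, and 21 and 33 when values were scaled to the summed RPM of the other miRNA genes.

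On day 8, 1 of the 3 tested members was still called lower than in seedlings. ath-MIR158b stood at -1.43 on the log2 scale (SE 0.27, limma adjusted p = 0.00062), where 15% of the 153 genes were called lower. ath-MIR158a had 0.28 (SE 0.19, adjusted p = 0.25) and ath-MIR161 -0.11 (SE 0.16, adjusted p = 0.62). Both of these depended on the scale. When values were scaled to the summed RPM of all miRNA genes, ath-MIR158a was called lower (log2 fold change -0.44, adjusted p = 0.0076) and so was ath-MIR161 (-0.84, adjusted p = 0.00023). Without seedlings replicate 3, ath-MIR158a was called higher than in seedlings (0.52, adjusted p = 0.018). Over all genes 53 were called higher and 23 lower, and 40 and 37 on the scale of the other miRNA genes. For ath-MIR158b the call held under every setting tried.

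The course of flower formation was followed from stage to stage. From day 0 to day 2, within run 2, the log2 fold changes were 0.081 for ath-MIR158a (SE 0.14, adjusted p = 0.92), -0.017 for ath-MIR161 (SE 0.16, adjusted p = 0.99) and -0.091 for ath-MIR158b (SE 0.25, adjusted p = 0.94) from limma. None of the 137 genes tested (0%) was called in this step, and 11 had an unadjusted p under 0.05. The libraries of the 2 stages overlapped for all 3 members.

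From day 2 to day 4, ath-MIR158a rose by 0.54 on the log2 scale (SE 0.14, limma adjusted p = 0.0078) and ath-MIR161 by 0.70 (SE 0.16, adjusted p = 0.0033). ath-MIR158b had 0.72 (SE 0.25) and an adjusted p of 0.056. Of all 137 genes 5.11% were called higher, 7 in all, of which 2 were members. This step is also the step from run 2 to run 3. Without day 4 replicate 1 the call of ath-MIR158a was lost (log2 fold change 0.46, adjusted p = 0.17), and ath-MIR158b was called without day 4 replicate 2 (0.97, adjusted p = 0.034) or day 2 replicate 3 (0.80, adjusted p = 0.042). It was also called with a pseudocount of 5 (adjusted p = 0.044), a minimum of 10 RPM (0.021), on the scale of the other miRNA genes (0.013) and in the quantile-normalized values (0.00049). The calls of ath-MIR158a and ath-MIR161 were also lost in a fit without the intensity trend (adjusted p = 0.23 and 0.16). In the quantile-normalized values ath-MIR161 lost its call (adjusted p = 0.22), and so did ath-MIR158a, which does not vary there. With all 13 libraries in the fit ath-MIR158a lost its call (adjusted p = 0.19). The 7 higher and 10 lower calls became 11 and 9 on the scale of the other miRNA genes.

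From day 4 to day 8, within run 3, no member was called. The log2 fold changes were 0.21 for ath-MIR158a (SE 0.14, adjusted p = 0.38), -0.041 for ath-MIR161 (SE 0.16, adjusted p = 0.93) and 0.59 for ath-MIR158b (SE 0.25, adjusted p = 0.14) from limma. The libraries of ath-MIR158b did not overlap, at 45.2 and 63.7 RPM on day 4 against 74.0 to 93.8 RPM on day 8, and the same was true of ath-MIR158a. In this step 14.6% of the 137 genes were called in either direction, 16 higher and 4 lower, and 10 higher and 7 lower in the authors' quantile-normalized values.

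Over the longer intervals all 3 detected members were called higher. Against day 2, day 8 had log2 fold changes of 0.76 for ath-MIR158a (SE 0.13, adjusted p = 6.3e-05 from limma), 0.66 for ath-MIR161 (SE 0.15, adjusted p = 0.0010) and 1.31 for ath-MIR158b (SE 0.22, adjusted p = 6.3e-05). The share of genes called higher was 23.4%, and the median log2 fold change was 0.20 over all genes. The 32 higher and 18 lower calls became 26 and 23 with median-ratio scaling. Against day 0, which shares the day 8 libraries with the former comparison, the log2 fold changes were 0.84 for ath-MIR158a (SE 0.14, adjusted p = 8.5e-05 from limma), 0.64 for ath-MIR161 (SE 0.16, adjusted p = 0.0046) and 1.22 for ath-MIR158b (SE 0.25, adjusted p = 0.00060). Here 18.2% of the genes were called higher, with a median log2 fold change of 0.17 over all genes. The 25 higher and 14 lower calls became 16 and 14 with median-ratio scaling. ath-MIR161 lost its call against day 0 with median-ratio scaling (log2 fold change 0.32, adjusted p = 0.086) and without day 0 replicate 2 (0.51, adjusted p = 0.096). Without the intensity trend it lost both calls, with an adjusted p of 0.071 against day 2 and 0.13 against day 0, and in the quantile-normalized values as well (0.22 and 0.37). Both intervals cross from run 2 to run 3.

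Across the 4 stages the F-test of limma called all 3 detected members, where 32.8% of the 137 genes were called changed. Only ath-MIR158b also differed by more than 2-fold between its lowest and highest stage, as did 27% of all genes. The largest difference between stages was 1.31 on the log2 scale for ath-MIR158b (adjusted p = 0.00020), 0.84 for ath-MIR158a (adjusted p = 3.9e-05) and 0.70 for ath-MIR161 (adjusted p = 0.00056). Without the intensity trend ath-MIR158a (adjusted p = 0.059) and ath-MIR161 (adjusted p = 0.11) lost this call, and with median-ratio scaling ath-MIR158b no longer passed 2-fold. In the authors' quantile-normalized table ath-MIR158a has a single value in all libraries, because that method gives the top-ranked gene the same value everywhere.

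**Figure D3:**
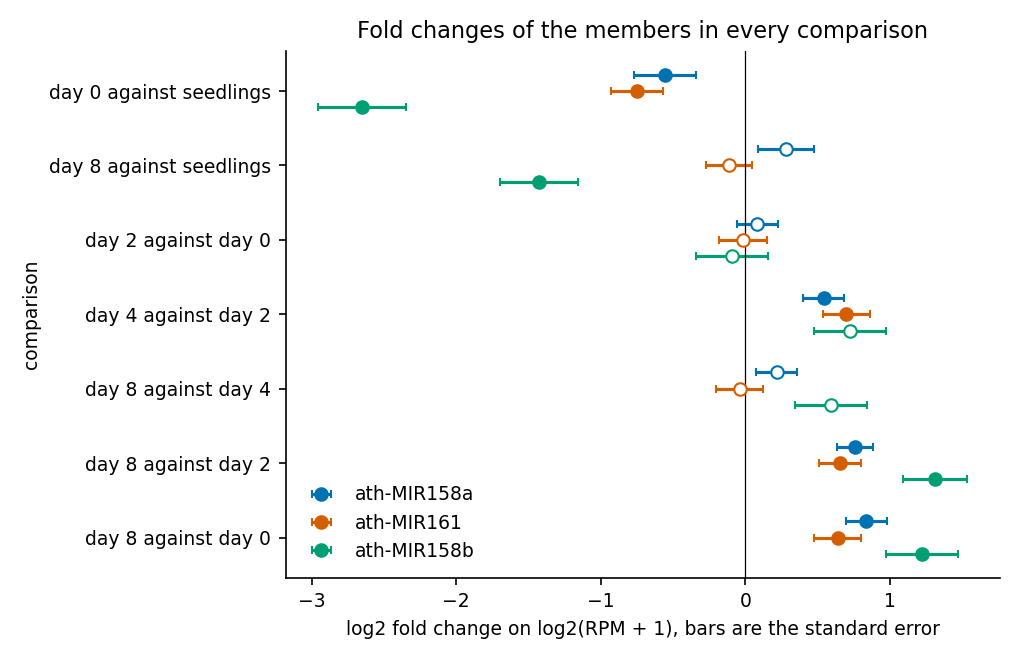
Log2 fold change on log2(RPM + 1) with its standard error for ath-MIR158a, ath-MIR161 and ath-MIR158b in 7 comparisons. Filled points have an adjusted p under 0.05 and open points do not. The step within run 2 and the step within run 3 hold open points only, and ath-MIR158b lies at -2.65 and -1.43 against seedlings.

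The 2 *MIR158* loci did not keep a fixed ratio. The RPM of ath-MIR158a was 40.3 ± 5.11 times that of ath-MIR158b in seedlings (SD, n = 3). The ratio was 176 ± 18.1 on day 0 (SD, n = 2), 200 ± 36.1 on day 2 (SD, n = 3), 173 ± 28.8 on day 4 (SD, n = 2) and 132 ± 10.7 on day 8 (SD, n = 3). The log2 ratio was higher in inflorescences than in seedlings by 2.05, with no overlap (exact two-sided permutation p = 0.00699, adjusted 0.0113). Between days 4 and 8 and days 0 and 2 it differed by -0.36 (exact permutation p = 0.0476, adjusted 0.0595), with overlapping libraries. Both loci yield the same bases 2 to 20, and the assignment of reads between them was not tested.

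The ratio of ath-MIR158a to ath-MIR161 was 2.13 ± 0.629 in seedlings (SD, n = 3) and lay between 2.29 ± 0.214 (day 4, SD, n = 2) and 2.74 ± 0.376 (day 8, SD, n = 3) in the inflorescence stages. The log2 ratio differed by 0.27 between inflorescences and seedlings (exact permutation p = 0.168, adjusted 0.186). Between late and early stages it differed by 0.037 (exact permutation p = 0.746, adjusted 0.746). Neither difference passed the test, and the seedling libraries alone ranged from 1.54 to 2.79.

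**Figure D4:**
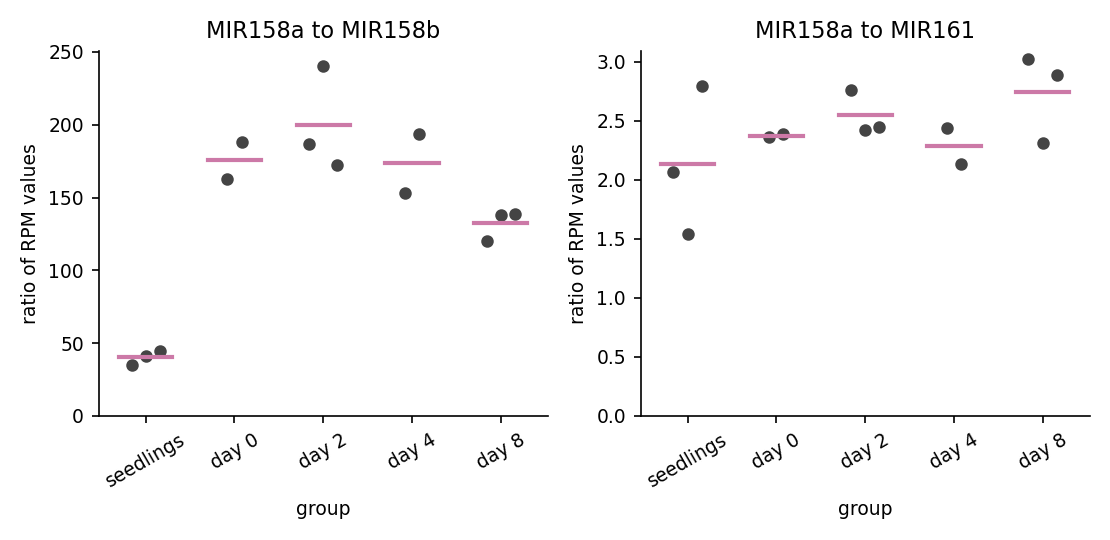
Ratio of the RPM of ath-MIR158a to that of ath-MIR158b (left) and of ath-MIR161 (right) in each library (points; lines are group means), on linear axes from 0. The left ratio is 34.7 to 44.7 in seedlings and 120 to 241 in inflorescences. The right ratio spans 1.54 to 3.02, and the groups overlap.

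ath-MIR173, the trigger of the *TAS1* and *TAS2* small RNAs, some of which pair with PPR mRNAs, and ath-MIR840, which has a PPR target, were listed with the 4 members. ath-MIR173 had 62.7 to 85.1 RPM in seedlings and 153 to 375 RPM in inflorescences. Its log2 fold change on day 0 against seedlings was 1.67 (SE 0.29, limma adjusted p = 0.00043), and -0.17 on the scale of the other miRNA genes (adjusted p = 0.69). ath-MIR173 was called lower on day 4 than on day 2 (-0.76 on the log2 scale, SE 0.23, limma adjusted p = 0.027). That call was lost on the scale of the other miRNA genes (adjusted p = 0.096), in the quantile-normalized values (0.22), without the trend (0.18) and with all 13 libraries in the fit (0.18). Leaving out day 4 replicate 1 ended it too, as did leaving out replicate 2 of day 0, of day 2 or of day 8, with an adjusted p of 0.051 to 0.19. ath-MIR840 had 6.73 to 21.3 RPM, from 1 to 26 reads, and was called in none of the 7 comparisons. On the scale of the other miRNA genes ath-MIR840 was called lower than in seedlings on day 0 (log2 fold change -2.23, adjusted p = 0.0028 from limma) and on day 8 (-1.45, adjusted p = 0.012), and without seedlings replicate 2 it was called lower on day 0 (-0.99, adjusted p = 0.020). Of this list of 6 loci, 5 were tested. From day 0 to day 8, 3 of these 5 were called higher and 0 lower, beside 25 higher and 14 lower of all 137 genes. On day 0 against seedlings 1 was called higher and 3 lower, beside 46 higher and 24 lower of all 153 genes.

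The loci with the most similar course were sought among 43 genes with a mean of at least 10 RPM, by Pearson correlation of log2(RPM + 1) over the 13 libraries. The libraries share runs and depth by group, so the values are descriptive. For ath-MIR158a they were ath-MIR161 (r = 0.79), ath-MIR865 (0.72) and ath-MIR840 (0.63). For ath-MIR161 they were ath-MIR865 (0.82), ath-MIR850 (0.80) and ath-MIR158a (0.79). For ath-MIR158b they were ath-MIR850 (0.96), ath-MIR863 (0.95) and ath-MIR157c (0.95). These 3 loci, like ath-MIR158b, had their highest group mean in seedlings, at 120 ± 34.4 RPM for ath-MIR850, 1561 ± 187 for ath-MIR863 and 104 ± 42.6 for ath-MIR157c (SD, n = 3). ath-MIR158a was not among them, with r = 0.60 to ath-MIR158b over all 13 libraries. Over the 10 inflorescence libraries alone, ath-MIR158a was the locus most like ath-MIR158b (r = 0.94). In these libraries the RPM of ath-MIR158a was 120 to 241 times that of ath-MIR158b. The 2 mature miRNAs differ only at the first base, and the assignment of reads between the loci was not tested.

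Complementary sites were sought for each mature sequence in the annotated mRNAs of 27562 protein-coding genes, 262 of which (0.951%) have a product annotated as pentatricopeptide repeat. A site had a score of at most 4, where a mismatch costs 1 and a G:U pair 0.5, both doubled at positions 2 to 13, and no gap was allowed. miR400 had a site in 24 genes, 17 of them PPR genes. miR161.2 had a site in 22 genes, 13 of them PPR genes, and miR161.1 in 13 genes, 6 of them PPR genes. All 6 were also among the 13 of miR161.2, which shares 12 bases with miR161.1. miR158a-3p had a site in 10 genes and miR158b in 4, with 2 and 1 PPR genes, and none of the 7 genes of miR158a-5p was a PPR gene. The PPR annotation by product is narrow. *RPF2* and *RPF3*, both PPR proteins that process mitochondrial mRNAs, are named RNA processing factors, and related genes are listed as tetratricopeptide repeat. With these names included, a choice made after the sites were seen, 600 genes (2.18% of all) counted. They take in any gene annotated with such a name, so not all 600 need be PPR genes. Among genes with a site, 13 of 13, 21 of 22 and 23 of 24 counted for miR161.1, miR161.2 and miR400. For miR158a-3p, miR158b and miR158a-5p it was 3 of 10, 1 of 4 and 0 of 7.

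For each of 4 mature sequences, 1 site with the lowest score in a PPR gene is shown to set the miRNA beside its complement, with the bases that face the seed in capitals. All lie in coding sequence. Only genes annotated as PPR by product were considered here. Of these, AT1G63330 and AT5G41170 tie with the gene shown for miR161.2, and AT1G63080 and AT1G63400 with that shown for miR161.1. Among these ties the first locus tag was taken. *RPF2*, *RPF3*, AT1G63130 and AT1G64583, which count only under the wider annotation, had the same score for miR161.1.
AT1G06580, for miR400: gugacuuauaauaCUCUCAUa
AT1G62590, for miR161.2: uagucacguucaaUGCAUUGa
AT1G62910, for miR161.1: auccaaauguaguCACUUUCa
AT1G64100, for miR158a-3p: uucuuugucuacAUUUGGCa

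Their scores were 0, 1, 2.5 and 3. The first lies at chr1:2014950-2014970 on the minus strand, the second at chr1:23178190-23178210 on the minus strand, the third at chr1:23300033-23300053 and that of miR158a-3p at chr1:23792061-23792080, both on the plus strand. The site in AT1G64100 scored 4 for miR158b, since the first base of miR158b, unlike that of miR158a-3p, does not pair there. Of the 262 PPR genes searched, 13 had a site of miR161.1 or miR161.2 and 17 a site of miR400. The 2 groups shared 10 genes, which is 76.9% of the former and 58.8% of the latter. These genes are not independent of each other, as AT1G62910, AT1G63080 and AT1G63400 carry the same sequence at the miR161.1 site. A match of letters is not a measured target.

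**Figure D5:**
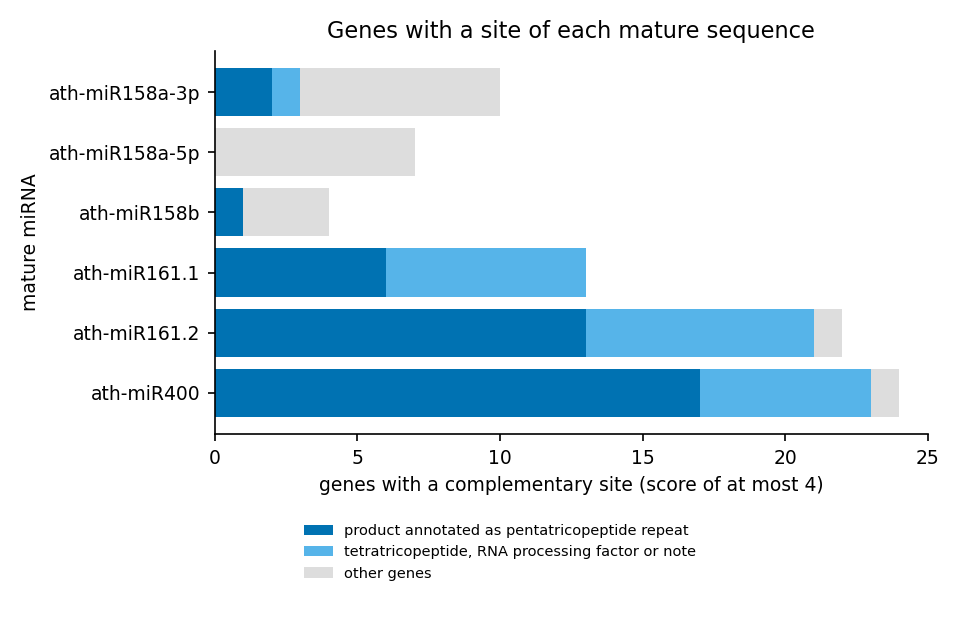
Number of genes with a complementary site (score of at most 4) for each of the 6 mature sequences, split by whether the product is annotated as pentatricopeptide repeat, whether it falls only under the wider annotation, or neither. miR400 and miR161.2 reach 24 and 22 genes, and miR158b reaches 4.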

How the data were processed

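Small RNA was sequenced in 13 libraries. The authors trimmed reads with Trim Galore (minimum length 17), mapped them with STAR to TAIR10 (up to 10 places) and deposited RPM per miRNA gene from STAR gene counts. Tool versions for this small RNA step were not given in the sources used here. Extraction and library kits are named differently in different sources. The authors also deposited quantile-normalized values, a score used only as an alternative. 3 library columns that belong to no sample here were not used. They stand in a deposited sheet with the word outliers in its name. The paper states 3 biological replicates for each sample, which days 0 and 4 do not have here. Spreads and p-values rest on the libraries kept. Sequences and positions come from TAIR10.1, the reference's update of TAIR10, with its RefSeq annotation.

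log2(RPM + 1) was tested with limma 3.58.1 in R 4.3.3 with an intensity trend, over genes with at least 1 RPM in at least 2 libraries, with Benjamini-Hochberg adjustment over all genes tested: 137 in the 10 inflorescence libraries and 153 in all 13 libraries for seedlings. Fits were tested on simulated data. RPM are not counts, so no count model was run. Shares and ratios were compared by exact permutation tests (scipy 1.17.1). The tests planned for the share of the 4 members together are not given, and ath-MIR400 gave none, which left 10.

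The members and lists were chosen with earlier results of these data known. Named genes are the 4 members, ath-MIR173 and ath-MIR840, the 3 loci most like each member, and loci at rank 1 or 2. The label of one day 2 library gives a time of 0 days, while its title and treatment give day 2, which was used. The study's methods call the replicates biological, while the labels do not say whether they came from separate plants. The p-values reflect only how far these libraries spread. The 11 replicate pairs differed by more than sampling noise (chi-square per degree of freedom 2.54 to 12.3). Whether replicate numbers pair libraries across groups could not be decided, and the main fits took them as unpaired. Scaling, pseudocounts, filters, the trend, the replicate block and leaving out each library were tried.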

Additional observations from a re-analysis of the deposited data

How the results depend on the processing

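The settings other than leaving out a library left 361 of 425 fold changes with the same direction and side of the threshold. Without a change of sign 28 lost and 16 gained a call, and 20 changed sign, some of them with a change of call. Of 125 counts, shares and ratios, 107 were taken as the same. For a count this meant within 1.5 times, so that 2 members called in place of 3 still passed. For the share of the 4 members it meant within the larger group SD, and for other shares and ratios the same direction and side of the threshold. The shares of ath-MIR400, all 0, were among the 107. In the authors' quantile-normalized values 1 member was called for day 4 against day 2, day 8 against day 2, day 8 against day 0 and across the 4 stages, each time ath-MIR158b, and 2 for day 8 against seedlings. Without the intensity trend 0 were called for day 4 against day 2, 1 across the 4 stages and 1 for day 0 against seedlings. With all 13 libraries in the fit 1 was called for day 4 against day 2. Members changed by over 2-fold across the stages numbered 0 with median-ratio scaling and 2 on the scale of the other miRNA genes. For day 8 against seedlings 2, 3 and 3 members were called with median-ratio scaling, on the summed scale and on the scale of the other miRNA genes. In one setting MIR158a was left out of the denominator but stayed in the summed RPM of the 4 members. The result is a ratio in percent and not a share, and cannot be set beside the shares above. It differed by -81.6 percentage points between inflorescences and seedlings and by 28.4 between late and early stages. With the wider annotation 13 and 21 genes had a site of miR161.1 and miR161.2.

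Signs changed as follows, in log2 fold change. For day 2 against day 0, ath-MIR161 had 0.079 on the summed scale and 0.15 on the scale of the other miRNA genes, and ath-MIR158b had 0.0021, 0.073 and 0.014 (summed, other genes and quantile-normalized). For day 8 against seedlings, ath-MIR158a had -0.25 with median-ratio scaling, -0.44 on the summed scale and -1.33 on the scale of the other genes, and ath-MIR840 had -0.42, -0.60, -1.45 and -0.031 (median-ratio, summed, other genes and quantile-normalized). For day 8 against day 2, ath-MIR840 had -0.13, -0.065 and -0.16 (median-ratio, summed and quantile-normalized). For day 8 against day 0, ath-MIR173 had 0.23 on the scale of the other genes and 0.31 quantile-normalized, and for day 0 against seedlings -0.17 on the scale of the other genes. The causes were not tested.

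With the replicate number as a block, ath-MIR161 had 0.00037 for day 2 against day 0 and ath-MIR173 had 0.11 for day 8 against day 0, ath-MIR158b was called for day 4 against day 2 (adjusted p = 0.043 from limma) and ath-MIR158a lost its call for day 0 against seedlings (adjusted p = 0.11), while the number of members called stayed within 1.5 times in all comparisons. Deviations from the group means correlated at -0.17 to 0.15 between same-numbered inflorescence libraries (2 of 13 over 0.1). Between differently numbered ones they correlated at -0.15 to 0.17 (6 of 24 over 0.1). In a group of 2 libraries the deviations mirror each other, so these values cannot decide whether the numbers pair the libraries.

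Leaving out each library in turn gave 1 to 3 members called for day 4 against day 2, 1 to 3 for day 0 against seedlings, 1 to 2 for day 8 against seedlings and 2 to 3 for day 8 against day 0. The log2 fold changes for day 2 against day 0 ranged from -0.036 to 0.20 for ath-MIR158a, -0.16 to 0.14 for ath-MIR161 and -0.31 to 0.12 for ath-MIR158b. ath-MIR161 ranged from -0.12 to 0.0023 for day 8 against day 4, ath-MIR173 from -0.24 to 0.13 for day 8 against day 0 and ath-MIR840 from -0.41 to 0.35 for day 8 against seedlings. The log2 ratio of MIR158a to MIR158b between late and early stages ranged from -0.46 to -0.27, and passed the test without day 4 replicate 2. The log2 ratio of MIR158a to MIR161 ranged from 0.059 to 0.49 between inflorescences and seedlings, passing without seedlings replicate 3, and from -0.025 to 0.10 between late and early stages. The seedling libraries were the shallowest, which limits ath-MIR158b and ath-MIR400 most.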
